A study of Mus musculus with 8 samples.

Results

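The small leucine-rich proteoglycans are a family of secreted matrix proteins, and 9 of their genes were followed in the left ventricle of mice infused with saline or with angiotensin II (ANG II, a peptide hormone that raises blood pressure): Bgn, Dcn, Aspn, Fmod, Lum, Prelp, Omd, Ogn and Podn. The genes were chosen by symbol, and each matched 1 gene of the 55679 in the expression table and was among the 19364 genes tested. The control group was 4 left ventricles of male wild-type C57BL/6J mice infused with saline for 7 days, and the hypertensive-LVH group (left ventricular hypertrophy, here called ANG II) was 4 left ventricles of such mice infused for 7 days with 1500 ng/kg/min of ANG II. Both were given by an osmotic pump placed under the skin, all hearts were flushed with saline before the ventricle was taken, and no age was given. The infusion raises pressure and also exposes every cell of the body to the hormone, and these cannot be told apart in this design. The study's methods call the sequenced samples biological replicates, and give more of them per group than the libraries analysed here. The labels do not tie each library to a mouse of its own, so a p-value measures the spread between these libraries. The question behind the comparison was how left ventricular gene expression differs once ANG II has raised the blood pressure.

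Proteins of this family have a core of leucine-rich repeats, which in many members carries chains of chondroitin, dermatan or keratan sulphate. Many members bind collagen fibrils and govern how fibrils assemble and how thick they grow, and several also bind growth factors such as TGF-β or act on receptors of the cell surface. In the heart they are made mainly by fibroblasts, and they are known as part of the matrix laid down in scars and in fibrosis. The family is divided into classes by the sequence of the core protein and the order of the exons, and the genes are described here in that order: class I (Bgn, Dcn, Aspn), class II (Fmod, Lum, Prelp, Omd), class III (Ogn) and class V (Podn).

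The libraries held 14455654 to 16564828 fragments, as read from the steps of the deposited values. The values are in FPKM (fragment counts per length of transcript and per library total). The length was recovered as the mean over a gene's annotated transcripts, so a comparison of level between genes depends on that annotation. A protocol label names CRC cells as the source of RNA, whereas the tissue label of every library is left ventricle. In every library the 8 cardiomyocyte markers (among them Myh6, Tnnt2 and Myl2) summed to between 36930 and 49930 FPKM. Genes of the mitochondrial genome held 26.5 ± 0.307% of all fragments of control libraries and 20.0 ± 1.25% of ANG II libraries (SD, n = 4 each), and the FPKM values of all other genes are shares of the same total. The median log2 fold change over all genes tested was 0.147, and 90.8% of the called genes were higher in ANG II. In bulk tissue, a change in the number of cells of a type and a change in RNA per cell cannot be told apart.

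Several of these genes are neighbours (positions from GENCODE M21, GRCm38). Dcn (chr10:97479609-97518143, plus strand) lies 47.0 kb before Lum (chr10:97565128-97572703, plus strand). Aspn (chr13:49544443-49567565), Omd (chr13:49582462-49592822) and Ogn (chr13:49608046-49624501) follow each other on the plus strand, 14.9 and 15.2 kb apart. Prelp (chr1:133910304-133921414, minus strand) and Fmod (chr1:134037254-134048277, plus strand) lie 115.8 kb apart on opposite strands. Bgn (chrX:73483602-73495933, plus strand) and Podn (chr4:108014791-108096445, minus strand) are the only members on their chromosomes. Exons of another gene cover 9.68% of the Prelp exons and 0.297% of the Aspn exons, each on the opposite strand (Gm15851 and Cenpp), and since the use of strand was not stated, reads of these stretches may belong to either gene. Of the 50-base words of each gene's transcripts, 3.7% of those of Omd were also found in transcripts of other genes, and at most 0.228% for the other 8.

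The sequence before the start of transcription is shown for the 3 genes with the largest fold changes, Aspn, Fmod and Bgn, and for Ogn, a neighbour of Aspn on chromosome 13 that changed far less. Each is the 250 bases before the start that RefSeq gives (GRCm38.p6), 5′ to 3′ on the gene's strand: Bgn at chrX:73483351-73483600, Aspn at chr13:49544193-49544442, Fmod at chr1:134037004-134037253 and Ogn at chr13:49607765-49608014, all on the plus strand. Capitals mark matches, on either strand, to a short motif described after the sequences.
Bgn: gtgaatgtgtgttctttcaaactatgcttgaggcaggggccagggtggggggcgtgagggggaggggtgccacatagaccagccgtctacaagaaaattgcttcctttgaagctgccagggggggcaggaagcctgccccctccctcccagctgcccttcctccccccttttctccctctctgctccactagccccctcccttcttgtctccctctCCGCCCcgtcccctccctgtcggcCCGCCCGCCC
Aspn: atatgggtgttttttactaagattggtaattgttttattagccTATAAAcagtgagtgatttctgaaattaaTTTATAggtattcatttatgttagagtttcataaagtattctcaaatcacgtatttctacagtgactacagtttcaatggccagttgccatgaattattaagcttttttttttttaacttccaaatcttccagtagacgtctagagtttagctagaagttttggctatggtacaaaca
Fmod: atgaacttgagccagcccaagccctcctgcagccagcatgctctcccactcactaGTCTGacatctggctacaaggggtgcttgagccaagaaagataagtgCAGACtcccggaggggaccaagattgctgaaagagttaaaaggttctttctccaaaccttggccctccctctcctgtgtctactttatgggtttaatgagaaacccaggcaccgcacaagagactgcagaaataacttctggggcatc
Ogn: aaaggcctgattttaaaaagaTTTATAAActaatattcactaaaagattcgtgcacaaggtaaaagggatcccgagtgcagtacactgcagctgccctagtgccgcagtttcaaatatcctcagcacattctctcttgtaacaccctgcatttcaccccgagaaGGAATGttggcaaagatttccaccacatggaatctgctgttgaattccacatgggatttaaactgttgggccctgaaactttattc

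The 4 windows differed in base composition, with a GC content of 64.4% for Bgn, 51.2% for Fmod, 42% for Ogn and 30% for Aspn. Windows were found for 7 of the 9 genes, all but Dcn and Lum, with 2 starts for Podn, and 6 motifs were searched in them on both strands. The GC box, searched as GGGCGG, was found 34, 10 and 6 bases before the start of Bgn (counted from the base next to the start to the far end of the match) and 202 and 70 bases before a start of Podn, and 32.7% of all 32851 windows hold it. The TATA motif, searched as TATAAA, was found 207 and 178 bases before the start of Aspn and, in a pair of overlapping matches on opposite strands, 229 and 227 bases before that of Ogn, against 12.4% of all windows. The SMAD motif, searched as CAGAC, was found 195 and 148 bases before the start of Fmod and 161 before that of Prelp, against 42.2% of all windows. A match to the TEAD motif GGAATG stood 86 bases before the start of Ogn (12.6% of all windows). None of the 7 genes had the AP-1 motif TGANTCA (6.75% of all windows) or the E-box CACGTG (6.02%). No motif was therefore shared by all of the genes, and a match is a description of the letters and not a bound site.

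All 9 genes were higher in ANG II by the test across all genes (limma on log2(FPKM + 1), adjusted p under 0.05 and absolute log2 fold change above 0.5), where 15.4% of all tested genes were called, 14% higher and 1.41% lower. In 8 of the 9, all but Omd, every ANG II library stood above every control library, as in 28.7% of all tested genes, while 5.06% stood wholly below. The size of the change set 4 genes apart from the other 5. Aspn, Fmod, Bgn and Lum had log2 fold changes of 1.76 to 2.45, and 3.96% of all tested genes were called above a log2 fold change of 1. The others lay between 0.52 and 0.78. Omd, the lowest in level, was at 0.92 with a pseudocount of 0.1 FPKM and at 1.02 by voom on fragments. The median over the 9 genes was 0.78, against 0.147 over all genes tested.

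**Figure D1:**
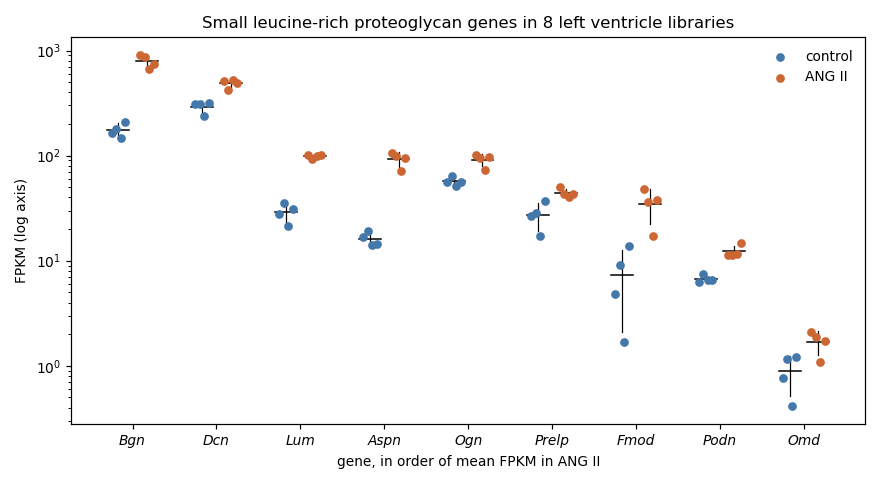
FPKM (log axis) of each gene in the 4 control and 4 ANG II libraries, with the genes in order of their mean in ANG II. Points are libraries in order of their number, the horizontal line is the group mean and the vertical line its SD; the groups are separate for every gene except Omd, and Fmod has the widest spread in control.

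Of class I, Bgn encodes biglycan, which binds collagen and TGF-β and in its soluble form signals through Toll-like receptors. It was at 163, 181, 148 and 211 FPKM in control libraries 1 to 4, and at 904, 878, 661 and 748 FPKM in ANG II libraries 1 to 4. All ANG II libraries were more than 3 times the highest control library. The means were 176 ± 27.1 and 798 ± 114.0 FPKM (SD, n = 4 each), a ratio of 4.54, and the log2 fold change was 2.18 ± 0.125 (SE; limma, adjusted p = 4.7e-06). It ranked 74 of 19364 genes by log2 fold change.

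Dcn encodes decorin, the close relative of biglycan that coats collagen fibrils and binds TGF-β. It was the most abundant of the 9 in control, at 313, 307, 236 and 314 FPKM. In ANG II it was at 513, 421, 529 and 495 FPKM. The groups were separate, although the gap between the highest control and the lowest ANG II library was smaller, relative to the level, than for Bgn. The ratio of the means was 1.67, and the log2 fold change was 0.74 ± 0.105 (SE; limma, adjusted p = 0.000553), at rank 1512.

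Aspn encodes asporin, which lacks the attachment site for the sugar chain near its start and binds collagen and TGF-β. It was at 16.6, 19.3, 14.1 and 14.3 FPKM in controls and at 107, 99.0, 71.2 and 94.3 FPKM in ANG II. The lowest ANG II library lay far above the highest control library. The ratio of the means, 5.77, and the log2 fold change, 2.45 ± 0.134 (SE; limma, adjusted p = 3.96e-06), were the largest among the 9 genes, at rank 51 of all genes tested. Fmod came first instead by voom (2.57 against 2.53), without control 4 (2.65 against 2.40) and, narrowly, without ANG II 3 (2.58 against 2.57). Each of the 3 class I genes kept its call in all 18 alternative fits.

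Of class II, Fmod encodes fibromodulin, a keratan sulphate proteoglycan that binds collagen type I and takes part in its crosslinking. It was at 4.85, 9.04, 1.69 and 13.7 FPKM in control, which is 128, 241, 51 and 382 fragments. It was at 47.7, 36.4, 17.4 and 38.2 FPKM in ANG II. The highest control library was 8.11 times the lowest, the widest control range among the 9 genes, and the lowest ANG II library lay only a little above the highest control library. The log2 fold change of 2.29 ± 0.485 had the largest error of the 9 (SE; limma, adjusted p = 0.00529). Leaving out each library in turn gave log2 fold changes from 1.83 to 2.65, each past the test.

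Lum encodes lumican, which shares a binding site on collagen with fibromodulin. It was at 27.9, 35.8, 21.3 and 30.8 FPKM in control. In ANG II it was at 102, 92.9, 99.5 and 101 FPKM, the narrowest range relative to the mean among the 9 genes, with a coefficient of variation of 4.26% against 20.9% in control. The ratio of the means was 3.42, and the log2 fold change was 1.76 ± 0.128 (SE; limma, adjusted p = 1.49e-05). Lum and its neighbour Dcn were thus both higher, with log2 fold changes of 1.76 and 0.74.

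Prelp encodes an arginine- and proline-rich member, which binds heparan sulphate as well as collagen. It was at 26.8, 28.7, 17.1 and 37.1 FPKM in controls and at 50.3, 42.7, 40.7 and 42.7 FPKM in ANG II. Control 4 came close to the ANG II libraries, and control 3 lay far below them. The log2 fold change was 0.71 ± 0.187 (SE; limma, adjusted p = 0.0157). The call was lost under 3 of 18 alternatives, all of them other scalings of the libraries: the log2 fold change was 0.49 by median of ratios (adjusted p = 0.0811), 0.52 by quantile normalization (adjusted p = 0.0556) and 0.57 after rescaling without mitochondrial genes and the 10 most abundant genes (adjusted p = 0.0535; limma in each).

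Omd encodes osteomodulin, first known from bone matrix. It was the least abundant of the 9, at 0.763, 1.15, 0.412 and 1.20 FPKM in controls and 2.08, 1.88, 1.08 and 1.71 FPKM in ANG II. These values rest on 13 to 35 fragments per library in control and 31 to 60 in ANG II. ANG II 3 lay below controls 2 and 4, so the groups overlapped. The log2 fold change of 0.52 ± 0.176 passed narrowly (SE; limma, adjusted p = 0.0454). It was 0.92 with a pseudocount of 0.1 FPKM (adjusted p = 0.0545) and 1.02 by voom on fragments (adjusted p = 0.0306; limma in both). The call was lost under 11 of 18 alternatives, with adjusted p-values up to 0.299, and among them were the leaving out of control 1, control 3, ANG II 1, ANG II 2 or ANG II 4, with log2 fold changes of 0.39 to 0.51. Of the 6 bone markers, Sp7 and Bglap were listed at 0 in all 8 libraries, and of the 2 tested Runx2 was called higher, with sums of 35.7 to 55.5 FPKM in controls and 51.1 to 55.6 FPKM in ANG II.

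Ogn, of class III, encodes osteoglycin (mimecan), a small member of the matrix of heart and vessels. It was at 56.2, 63.6, 51.6 and 56.6 FPKM in control, a coefficient of variation of 8.7%. It was at 101, 95.2, 72.8 and 97.5 FPKM in ANG II. The log2 fold change was 0.67 ± 0.104 (SE; limma, adjusted p = 0.00096). It dropped to 0.44 with median-of-ratios scaling (adjusted p = 0.00796) and 0.50 with quantile normalization (adjusted p = 0.00561), not above the fold change threshold.

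Podn, of class V, encodes podocan, which binds collagen and is known from kidney and vessel walls. It was at 6.23, 7.54, 6.49 and 6.49 FPKM in controls and at 11.4, 11.4, 11.6 and 14.7 FPKM in ANG II. Within each group 3 libraries lay close together, with control 2 and ANG II 4 above them. The log2 fold change was 0.78 ± 0.0987 (SE; limma, adjusted p = 0.000298), at rank 1367.

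**Figure D2:**
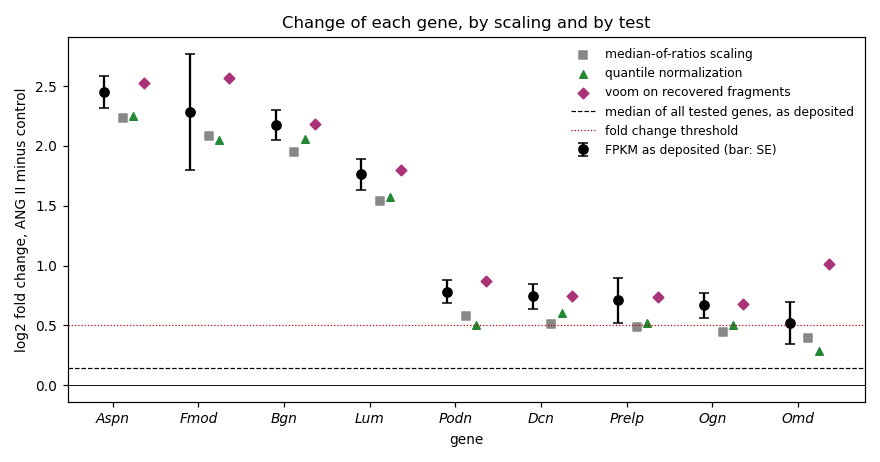
Log2 fold change (ANG II minus control) of each gene on the log2(FPKM + 1) scale with its SE (black), and the same after median-of-ratios scaling, after quantile normalization, and from voom on the recovered fragments. Aspn, Fmod, Bgn and Lum lie above 1 throughout. Prelp, Ogn and Omd reach or cross the threshold of 0.5 (dotted) under another scaling, and Dcn and Podn come just above it. The dashed line is the median of all genes tested, 0.147.

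Scaling touched the genes of smaller change. The median log2 fold change of all genes was 0.147 as deposited, 0.00246 with median-of-ratios scaling and -0.0425 with quantile normalization, and the share of calls that were higher was 90.8%, 67.5% and 59.1%. Of the 9 genes, 6 were still called higher under each of these scalings, where 8.65% and 7.31% of all genes were: Bgn, Dcn, Aspn, Lum, Fmod and Podn, which kept their call in all 18 alternatives. Rescaling without mitochondrial and the 10 most abundant genes left 7 called (10.2% of all genes), and voom on the recovered fragments called all 9 (18.9% of all genes). No gene changed direction under any of them.

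The order of the genes by level also differed between the groups. In control it was Dcn, Bgn, Ogn, Lum, Prelp, Aspn, Fmod, Podn and Omd, by mean FPKM. Lum was above Prelp in 3 of 4 libraries and Fmod above Podn in 2 of 4, so these neighbours did not differ beyond their spread. Prelp was above Aspn in 4 of 4 libraries, although their ranges overlapped. In ANG II the order was Bgn, Dcn, Lum, Aspn, Ogn, Prelp, Fmod, Podn and Omd. There Lum was above Aspn, and Aspn above Ogn, in 2 of 4 libraries each, so these 3 genes did not differ in level beyond their spread, and Prelp was above Fmod in 4 of 4 libraries with overlapping ranges. Dcn was above Bgn in 4 of 4 control libraries, and Bgn above Dcn in 4 of 4 ANG II libraries.

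The summed level of the 9 genes was 615, 653, 497 and 685 FPKM in controls and 1838, 1678, 1504 and 1633 FPKM in ANG II. Dcn made up 47.8 ± 2.19% of this sum in control and 29.6 ± 4.29% in ANG II, and Bgn 28.7 ± 1.98% and 47.8 ± 3.71% (SD, n = 4 each). By FPKM, the place of the highest gene thus passed from decorin to biglycan. Which of them stands higher depends on the mean transcript lengths used, 1462 bases for Bgn and 1797 bases for Dcn. Ogn went from 9.37 ± 0.893% to 5.49 ± 0.478%, and Aspn from 2.65 ± 0.387% to 5.56 ± 0.550%. The share of Lum was 4.70 ± 0.533% and 5.98 ± 0.520%, that of Prelp 4.398 ± 0.806% and 2.65 ± 0.0885%, and that of Fmod 1.13 ± 0.720% and 2.06 ± 0.632%. Podn and Omd stayed small, at 1.11 ± 0.159% and 0.742 ± 0.123% for Podn and 0.140 ± 0.0450% and 0.1004 ± 0.0195% for Omd.

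**Figure D3:**
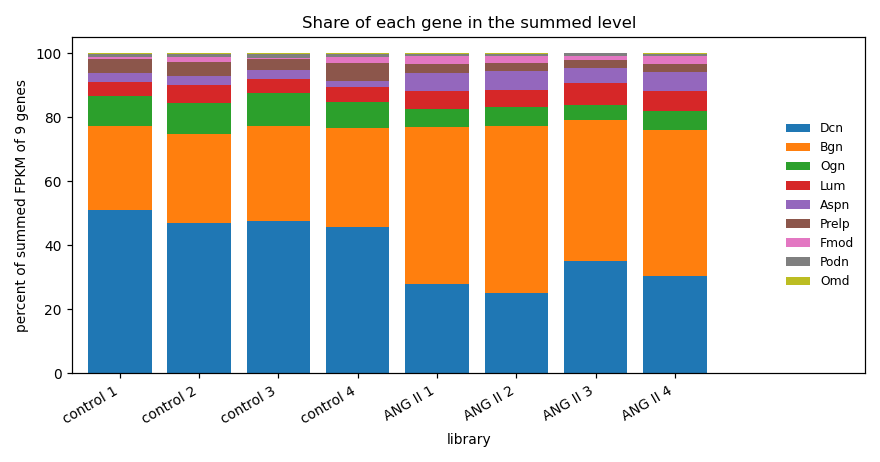
Share of each gene (percent) in the summed FPKM of the 9 genes, 1 bar per library. Dcn takes 45.8 to 50.9% in the control libraries and 25.1 to 35.2% in the ANG II libraries, and Bgn 26.4 to 30.8% and 43.9 to 52.3%.

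Ratios of 2 genes within a library are not moved by a factor that multiplies all values of that library, although quantile normalization can move them, and 4 such ratios were compared between the groups with an exact two-sided permutation test, whose smallest possible p is 0.0286 for 4 against 4. After adjustment over the 4 ratios the smallest value is 0.0571, so none passed 0.05. Bgn over Dcn, a pair of close relatives of class I, was 0.519, 0.590, 0.628 and 0.673 in control and 1.76, 2.09, 1.25 and 1.51 in ANG II. The groups were separate, and the mean log2 ratio was higher in ANG II by 1.44 ± 0.177 (SE; exact permutation p = 0.0286, adjusted p = 0.0571). Aspn over Ogn, neighbours on chromosome 13, was 0.296, 0.304, 0.273 and 0.252 in control and 1.06, 1.04, 0.978 and 0.967 in ANG II. Here too the groups were separate, with a difference of 1.85 ± 0.0690 on the log2 scale and little spread within either group (SE; exact permutation p = 0.0286, adjusted p = 0.0571).

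The pairs of class II overlapped between the groups. Fmod over Lum was 0.174, 0.253, 0.0792 and 0.444 in control and 0.466, 0.392, 0.174 and 0.378 in ANG II, a difference of 0.74 ± 0.610 on the log2 scale (SE; exact permutation p = 0.286, adjusted p = 0.286). It was 0.30 without control 3 and 1.13 without control 4 (exact permutation p = 0.571 and 0.114). Omd over Prelp was 0.0285, 0.0402, 0.0241 and 0.0324 in control and 0.0413, 0.0440, 0.0265 and 0.0401 in ANG II. The difference was 0.28 ± 0.228 on the log2 scale (SE; exact permutation p = 0.286, adjusted p = 0.286), and it was 0.03 after quantile normalization (exact permutation p = 0.971) and 0.19 with a pseudocount of 0.1 FPKM (exact permutation p = 0.429). Leaving out control 3 gave 0.16 and leaving out ANG II 3 gave 0.44 (exact permutation p = 0.571 and 0.114). The fragments of Omd limit its precision. Neither difference was larger than the spread between libraries, which does not show that the pairs changed alike.

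**Figure D4:**
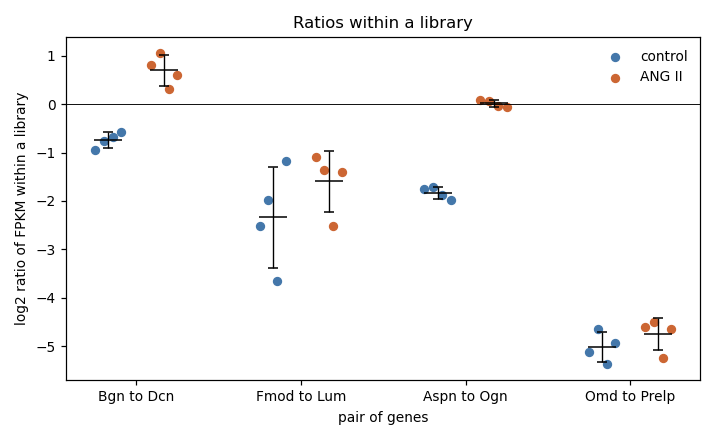
Log2 ratio of 2 genes within a library, for 4 pairs in the 4 control and 4 ANG II libraries; points are libraries, horizontal lines are means and bars are SD. The groups are separate for Bgn over Dcn and for Aspn over Ogn, and they overlap for Fmod over Lum and for Omd over Prelp.

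Within a group, the genes tended to be low or high in the same libraries. Control 3 was the lowest control library for 8 of the 9 genes, all but Podn, and the highest was control 4 for 5 genes and control 2 for 4. Of the ANG II libraries, ANG II 1 was the highest for 7 genes, while ANG II 3 was the lowest for 6 and ANG II 2 for 3. Bgn, Fmod, Prelp and Omd had the same order in control, with library 3 lowest, then 1, 2 and 4. The excursions were widest for Fmod and Omd.

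Markers of other tissues moved with some of these libraries, and their counts of calls rest on 2 to 6 tested genes each, beside 14% of all tested genes called higher. The 4 atrial markers (Sln, Myl4, Myl7, Bmp10) summed to 48.8, 47.4, 1.16 and 20.4 FPKM in controls and 126, 66.3, 230.5 and 52.5 FPKM in ANG II, lowest in control 3 and highest in ANG II 3. Of the 3 that were tested, Sln was called higher (log2 fold change 1.69), with overlapping groups. Myl4 and Myl7 had separate groups and log2 fold changes of 2.23 and 2.38, but did not pass (limma, adjusted p = 0.0557 for each). Bmp10 was at 0 in 6 libraries. The 7 markers of valve and cartilage summed to 13.2, 11.7, 8.50 and 17.8 FPKM in controls and 18.4, 14.1, 16.6 and 14.9 FPKM in ANG II, again lowest in control 3, and 3 of the 6 tested (Acan, Sox9 and Matn4) were called higher. The 4 markers of tendon summed to 6.41, 7.59, 4.68 and 7.37 FPKM in controls and 17.6, 14.9, 7.85 and 18.8 FPKM in ANG II, with Scx called higher of 2 tested. This sum was lowest in control 3 and in ANG II 3, the libraries in which most of the 9 genes were lowest. The 4 adipocyte markers summed to 0.462 FPKM in control 3, 2.90 to 6.12 FPKM in the other control libraries and 0.836 to 12.1 FPKM in ANG II. Of the 5 skeletal muscle markers, Myh4 was at 0 in all 8 libraries and Acta1 and Tnnt3 were called higher of 3 tested. Ckm, also tested, was lower with separate groups, short of the fold threshold (log2 fold change -0.39; limma, adjusted p = 0.00384). The sums overlapped, at 980 to 1453 FPKM in controls and 1006 to 1967 FPKM in ANG II. The part of these tissues in the values was not tested. Without control 3 the log2 fold changes were 2.099 for Bgn, 0.64 for Dcn, 2.40 for Aspn, 1.63 for Lum, 1.83 for Fmod, 0.51 for Prelp, 0.39 for Omd, 0.62 for Ogn and 0.77 for Podn, and 8 of the 9 genes were called, all but Omd. Without both control 3 and control 4, 8 were called as well.

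**Figure D5:**
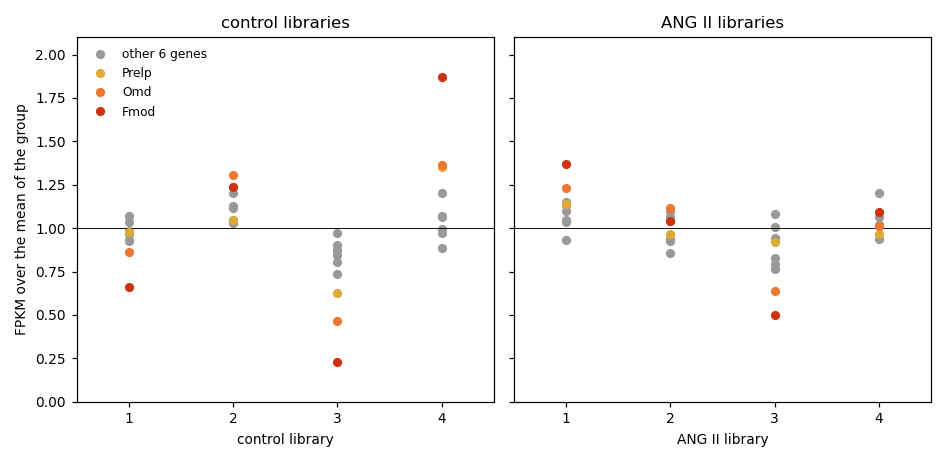
FPKM of each gene over the mean of its own group, by library, for the control libraries (left) and the ANG II libraries (right). Fmod, Omd and Prelp are coloured and the other 6 genes grey; control 3 lies below the group mean for all 9 genes, and Fmod reaches both the lowest and the highest point in control.

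Markers of fibroblasts, the main source of these proteins in the heart, were called higher for 8 of 10 genes, where 14% of all tested genes were, with a median log2 fold change of 0.73, near the 0.78 of the 9 proteoglycan genes. Their summed level overlapped between the groups, at 853 to 1102 FPKM in controls and 913 to 1207 FPKM in ANG II, with Gsn the largest part in every library. Gsn was at 673 to 878 FPKM in controls and 435 to 697 FPKM in ANG II, with a log2 fold change of -0.496 that did not pass the fold threshold. Of the other 9 fibroblast markers, all but Ddr2 were called (log2 fold change 0.42; limma, adjusted p = 0.00884). Macrophage markers were called higher for 6 of 7, with sums of 151 to 183 FPKM in controls and 357 to 475 FPKM in ANG II. Of the 8 cardiomyocyte markers, 6 were below every control library in all ANG II libraries, as in 5.06% of all tested genes. Of them 2, Myh6 and Tnni3, were called lower, as were 1.41% of all tested genes. The median log2 fold change of the 8 was -0.39, and their sums were 48570 to 49930 FPKM in controls and 36930 to 39220 FPKM in ANG II. Among the 7 endothelial markers 1 was called higher (14.3%), and among the 8 mural cell markers 2 were called higher (25%) and 1 lower. Of all tested genes, 14% were called higher and 1.41% lower. The 6 mesothelial markers had log2 fold changes of -0.21 to 0.22. How far a change in the makeup of the tissue enters the values of the 9 genes was not tested.

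Of 9 other genes of the family, 7 were expressed enough to be tested and 1 was called higher (14.3%, near the 14% of all tested genes), Tsku, which encodes tsukushi, a secreted modulator of growth factor signals. Tsku was at 1.35, 1.43, 1.68 and 1.24 FPKM in controls and 4.32, 2.75, 3.89 and 3.71 FPKM in ANG II, and its log2 fold change was 0.94 ± 0.128 (SE; limma, adjusted p = 0.000465). Ecm2, which lies 11.7 kb before Aspn on chromosome 13, was at 9.82 to 11.1 FPKM in controls and 12.3 to 15.8 FPKM in ANG II. Its groups were separate, but its log2 fold change, 0.35 ± 0.0841, did not reach the fold threshold (SE; limma, adjusted p = 0.00932). Chad, chondroadherin of cartilage, was at 2.39, 3.26, 0.934 and 5.60 FPKM in controls and 4.44, 2.73, 2.52 and 2.01 FPKM in ANG II (log2 fold change 0.05; limma, adjusted p = 0.92), and it followed the control order of Bgn, Fmod, Prelp and Omd.

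Epyc, on chromosome 10 after Lum and Kera, had a log2 fold change of 0.43 with overlapping groups (limma, adjusted p = 0.158), and 40.6% of its exons lie under a gene on the opposite strand. Chadl, Nyx and Podnl1 stood under 1 FPKM in every library, with log2 fold changes of 0.06, -0.09 and 0.11 that did not pass. Kera and Optc, which are known from cornea and eye, were not tested and rested on 0 to 6 and 0 to 5 fragments per library.

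Enzymes that build the sugar chains were in part higher. Of 33 genes for the linker, the chains and their sulphation, 31 were tested, 11 were called higher (35.5%, against 14% of all tested genes), and the median log2 fold change was 0.36 (range -0.01 to 1.39). The count was 7 with quantile normalization and 18 by voom, where 7.31% and 18.9% of all genes were called higher. On the log2(FPKM + 1) scale the largest was that of Dse, the epimerase that turns chondroitin into dermatan sulphate, at 7.68 ± 0.694 FPKM in controls and 21.8 ± 2.38 FPKM with ANG II (SD, n = 4 each; log2 fold change 1.39; limma, adjusted p = 1.03e-05). By the ratio of means Chsy3, a chondroitin synthase named here after its values were seen, was above it (5.17 against 2.84), at 0 to 0.153 FPKM in controls and 0.295 to 0.639 FPKM in ANG II, and its log2 fold change of 0.41 did not reach the fold threshold. B3gnt7, likewise named after its values were seen, was also above Dse by this ratio (3.59). It was at 0 to 0.206 FPKM in controls and 0.0992 to 0.283 FPKM in ANG II, with overlapping groups. Chpf and Chpf2, partners of the chondroitin polymerase, had log2 fold changes of 1.12 and 0.98, and Chst12, a chondroitin 4-O-sulphotransferase, one of 0.98. Of the Chpf2 exons, 44.1% lie under a gene on the opposite strand, so its value is uncertain. Of the abundant genes not called, Fam20b, the kinase that phosphorylates the xylose of the linker, was at 33.7 ± 2.00 FPKM and 33.4 ± 1.02 FPKM (SD, n = 4 each). B4galt1, a galactosyltransferase, had a log2 fold change of 0.36 under the fold threshold (limma, adjusted p = 0.000414).

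Of 23 genes for the processing and cleavage of these proteins, 10 were called higher (43.5%, against 14% of all tested genes), with a median log2 fold change of 0.47. Timp1, an inhibitor of matrix metalloproteinases, was at 2.58, 2.00, 1.90 and 2.29 FPKM in controls and 58.2, 33.1, 85.4 and 36.4 FPKM in ANG II, and its log2 fold change was 3.99 ± 0.256 (SE; limma, adjusted p = 7.97e-06). The metalloproteinase genes Mmp14, Mmp2 and Mmp3 had log2 fold changes of 2.14, 1.91 and 1.49. Htra1, a serine protease reported to cleave matrix proteoglycans, was at 64.4 to 74.9 FPKM in controls and 47.2 to 52.7 FPKM in ANG II, and its log2 fold change of -0.47 did not reach the fold threshold (limma, adjusted p = 0.000285); it was called lower under each of the 3 other scalings. Adamts1, another protease of matrix proteoglycans, was also not called, with 0.39.

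Of 28 genes for proteins that members of the family bind, 24 were called higher (85.7%, against 14% of all tested genes), with a median log2 fold change of 1.37. On the log2(FPKM + 1) scale the largest changes were those of Fn1, which encodes fibronectin, at 15.6 ± 1.98 and 205 ± 21.5 FPKM (SD, n = 4 each; log2 fold change 3.63), and of the fibrillar collagen genes Col1a1, Col1a2 and Col5a2, with 3.25, 3.13 and 3.01 (limma, adjusted p = 1.99e-07 for Fn1 and at most 3.1e-06 for the collagens). Col1a1 went from 64.7 ± 17.2 to 608 ± 52.2 FPKM (SD, n = 4 each). Kdr and Lrp6, receptors of which the first is a mark of endothelium, had overlapping groups and log2 fold changes of -0.14 and 0.11 (limma, adjusted p = 0.152 and 0.178).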

How the data were processed

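RNA-seq of 8 left ventricle libraries (4 control, 4 ANG II, grouped by treatment label) was used. The authors deposited 1 table of FPKM values, without pooling, from oligo(dT)-enriched RNA sequenced as paired ends. The submitters' processing notes name HISAT, Bowtie2 and RSEM with no version or role, and the genome build, annotation and use of strand were not given in the sources used here. Values multiplied by the mean GENCODE M21 transcript length fell on whole fragments: under 60 fragments, within 0.05, 99.1 to 99.3% of values were whole for genes with 1 transcript and 97.1 to 97.7% for the others. This gave 14455654 to 16564828 fragments per library, and 3 fragments were taken as the floor of a value of 0. No libraries were alike within sampling noise (chi-square per gene at least 6.89).

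Genes averaging 0.1 FPKM or more entered limma 3.58.1 (R 4.3.3; eBayes, trended variance) on log2(FPKM + 1), which understates the change of low genes. Two-sided p-values were adjusted over 19364 genes (Benjamini-Hochberg). A gene was called at an adjusted p-value under 0.05 and an absolute log2 fold change above 0.5, thresholds that the study names without the base of the logarithm. Ratios within a library were compared by exact two-sided permutation over 70 allocations (scipy 1.17.1, Python 3.11.15). The scripts were tested on simulated data. Alternatives changed the filter (none, or a mean of 1 FPKM), the pseudocount (0.1), the scaling, the variance trend, the fold threshold, the replicate block and the libraries used; voom on the recovered fragments was among them.

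The members and lists were chosen with earlier results of these data known. All 9 members and all other genes of the family are named, and of each further list up to 4 called genes of largest absolute log2 fold change plus up to 2 uncalled genes with the highest mean. Ccn2 and Ccn4 were matched by older symbols, and Kera and Kdr stand in 2 lists each. Promoter sequences were taken from RefSeq; protein sequences were not used here. Counting intervals and floors cover counting error only.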

Additional observations from a re-analysis of the deposited data

Results flagged for a closer look

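Across 44 sets of 4 libraries (18 genes of the family and 4 ratios, in each group), 2 held a library that stood apart from the other 3 by Dixon's criterion, which chance meets in about 1 in 20 sets. For Dcn in control, control 3 was at 236.4 FPKM against 307 to 314 FPKM in the others, a gap of 0.912 of the range. Without it the log2 fold change of Dcn was 0.64 and still called. For Podn in ANG II, ANG II 4 was at 14.74 FPKM against 11.4 to 11.6 FPKM in the others, a gap of 0.946 of the range. Without it the log2 fold change of Podn was 0.70 and still called.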

How the results depend on the processing

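The fold changes of the 9 members kept their direction in 18 alternatives, and the 4 ratios in the 11 that were run for them (pseudocount, quantile normalization, replicate block and each library left out). Over all genes, 2708 were called higher and 273 lower as deposited, 1671 and 804 with median-of-ratios scaling, 1417 and 981 with quantile normalization, 1972 and 547 after rescaling, and 767 higher above a log2 fold change of 1 against 5496 with no fold threshold. Called members numbered 6 to 9 of 9, and 4 above a log2 fold change of 1. Leaving out 1 library gave 8 to 9 called members, and 8 were called without both control 3 and control 4, an alternative chosen after seeing the data. Of the other genes of the family, 0 were called above a log2 fold change of 1 and 2 with no fold threshold (1 to 1 on leaving out a library). Chain assembly genes called numbered 7 with quantile normalization, 18 with voom, 2 above a log2 fold change of 1 and 20 with no fold threshold (10 to 12 on leaving out a library), against 11. Turnover genes called were 10 to 12 and binding partner genes 21 to 24 on leaving out a library. Leaving out each library gave log2 differences of 1.32 to 1.56 for Bgn over Dcn, 0.30 to 1.13 for Fmod over Lum, 1.80 to 1.89 for Aspn over Ogn and 0.16 to 0.44 for Omd over Prelp, where the smallest exact p is 0.0571. Quantile normalization gave 1.46, 0.66, 1.80 and 0.03 for the same ratios. With the replicate number as a block the differences of Bgn over Dcn and Aspn over Ogn stayed at 1.44 and 1.85, and that of Omd over Prelp at 0.28, all at the smallest exact p that allows, 0.125; Fmod over Lum stayed at 0.74 (exact p = 0.25), and 9 members were called. Deviations of libraries with the same number correlated at -0.0320 to 0.0620 and only control 2 correlated best with its own number, so the pairing was taken as one of number only. Depth limits Omd, Kera and Optc, and the cause of the lost calls was not tested.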

Other observations

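The level of the family relative to the fibrillar collagen that it binds is given here as a description, chosen after the values were seen and not tested. The summed FPKM of Col1a1, Col1a2 and Col3a1 was 294 ± 67.9 in controls and 2386 ± 195 in ANG II (SD, n = 4 each). The summed FPKM of the 9 proteoglycan genes was 2.35, 1.71, 2.22 and 2.21 times this collagen sum in control libraries 1 to 4 and 0.709, 0.710, 0.612 and 0.767 times in ANG II libraries 1 to 4. The summed FPKM of the proteoglycan genes was thus above that of the 3 collagen genes in every control library and in 0 of the 4 ANG II libraries. FPKM divides by the mean length of a gene's annotated transcripts. Which of the 2 sums is higher therefore depends on those lengths and does not give numbers of transcripts. For Dcn alone the ratio to the collagen sum was 1.02 ± 0.162 and 0.206 ± 0.0234, and for Bgn 0.611 ± 0.0934 and 0.335 ± 0.0452 (SD, n = 4 each). For Aspn it was 0.0559 ± 0.00878 and 0.0391 ± 0.00686 (SD, n = 4 each), with groups that were just separate. For Fmod it was 0.0185, 0.0237, 0.00754 and 0.0441 in the control libraries and 0.0184, 0.0154, 0.00707 and 0.0179 in the ANG II libraries, so the groups overlapped.

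Ratios of 2 further pairs of genomic neighbours were likewise chosen after the values were seen and not tested. Lum over Dcn was 0.0890, 0.117, 0.0900 and 0.0981 in control and 0.200, 0.221, 0.188 and 0.204 in ANG II. Fmod over Prelp was 0.181, 0.315, 0.0985 and 0.369 in control and 0.948, 0.853, 0.426 and 0.894 in ANG II.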
